A study of Mus musculus with 24 samples.

Results

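The immediate-early genes described here are Fos, Fosb, Jun, Junb, Egr1, Egr2, Nr4a1, Ier2, Atf3 and Dusp1. The set is defined by gene symbol and was chosen with earlier results of these data known. All 10 were found, with 1 probe set each, among 19505 annotated genes measured on Clariom S arrays in 24 mouse tumours of a series on pancreatic ductal adenocarcinoma (PDAC). The tumours formed 4 groups of 6, which were given BMS754807 with hydroxychloroquine (called the combination), BMS754807 alone, hydroxychloroquine alone, or vector as control. BMS754807 is a compound that blocks the kinases of IGF1R, which binds insulin-like growth factors, and of the insulin receptor (IR), and hydroxychloroquine is a weak base that raises lysosomal pH and blocks the late steps of autophagy. Doses, treatment times, mouse strain, age, tumour site and whether the tumours of a group came from separate animals are not stated in these labels, so each error and p describes the spread between these samples.

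Immediate-early genes are transcribed within minutes of a stimulus such as a growth factor, calcium, stress or tissue handling, without the need for new protein. Growth factor receptors reach them through the ERK cascade, which activates the ternary complex factors that bind beside serum response factor, and through kinases that act on the cyclic AMP response element binding protein. Most of their products are transcription factors that carry the signal on to later genes, and some, such as Dusp1, switch the signal off, so that in most cells the transcripts are short lived.

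The promoters of 4 members are shown because they span the contrast in sequence among genes whose levels are described below. Nr4a1, Fos and Dusp1 carry the core of the cyclic AMP response element (TGACG) more than once, and Jun lacks it in this window. Each line gives the 250 bases before the transcript start from RefSeq (build GRCm38.p6), 5′ to 3′ along the gene, with TGACG on either strand in capitals.
Nr4a1, chr15:101266596-101266845, plus strand: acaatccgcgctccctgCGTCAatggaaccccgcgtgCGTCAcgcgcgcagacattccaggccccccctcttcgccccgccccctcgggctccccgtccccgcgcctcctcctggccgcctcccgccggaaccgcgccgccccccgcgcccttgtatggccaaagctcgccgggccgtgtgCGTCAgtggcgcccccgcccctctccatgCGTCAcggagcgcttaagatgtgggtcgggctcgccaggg
Fos, chr12:85473640-85473889, plus strand: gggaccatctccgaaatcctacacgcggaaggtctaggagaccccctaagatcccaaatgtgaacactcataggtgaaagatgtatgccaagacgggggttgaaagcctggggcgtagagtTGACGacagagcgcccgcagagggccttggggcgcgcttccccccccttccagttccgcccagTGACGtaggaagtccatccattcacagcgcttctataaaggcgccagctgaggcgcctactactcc
Dusp1, chr17:26508473-26508722, minus strand: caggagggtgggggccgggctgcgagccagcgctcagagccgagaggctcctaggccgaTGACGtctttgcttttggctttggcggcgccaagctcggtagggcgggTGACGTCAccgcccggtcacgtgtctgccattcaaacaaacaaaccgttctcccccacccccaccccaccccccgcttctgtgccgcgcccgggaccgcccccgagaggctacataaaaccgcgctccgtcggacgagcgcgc
Jun, chr4:95052223-95052472, minus strand: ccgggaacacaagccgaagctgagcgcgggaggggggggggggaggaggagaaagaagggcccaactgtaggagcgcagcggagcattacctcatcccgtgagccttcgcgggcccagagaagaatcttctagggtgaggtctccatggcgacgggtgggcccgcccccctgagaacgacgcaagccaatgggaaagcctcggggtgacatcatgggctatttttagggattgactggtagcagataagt

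Windows of 300 bases, 250 before and 50 after the start, were held for 8 members, all but Egr1 and Ier2, and were searched on both strands. TGACG was present in windows of 7 of the 8, against 20.8% of all 32851 windows. It stood at 4 places in Nr4a1, 3 in Dusp1 and 2 in Fos, and at 1 each in Fosb, Junb and Atf3. Egr2, with 5 windows, had 2 places in each of 3 of them. The full element TGACGTCA, which contains TGACG and is its own reverse complement, was present only in Dusp1 among these 8 members and in 1.79% of all windows. The CArG box, which serum response factor binds, was present only in Egr2 of the 8 and in 1.63% of all windows. An EGR site (GCGNGGGCG) was present in Fosb and Nr4a1 and in 5.55% of all windows, and an AP-1 site (TGANTCA) in 0 of the 8 members and 7.81% of all windows. A match describes the letters in the window and is not a measured site. Sequence outside these windows was not searched, so a member without a match may still carry the motif farther from its start.

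Array medians over the annotated genes ran from 7.09 to 7.31 log2. How precise a value is depends here on the number of arrays. Epithelial markers were high in all 24 tumours: the ductal keratin Krt19 lay between 15.15 and 15.94 log2 and the adhesion molecule Cdh1 between 15.92 and 16.68. Epcam, another epithelial adhesion molecule, ranged more widely, between 10.68 and 14.92. The acinar enzyme gene Cpa1 (3.85 to 5.37) and the islet hormone genes Ins2 (2.72 to 4.48) and Gcg (2.37 to 3.33) were near the low end of the scale. Cela1, another acinar enzyme gene, lay higher, between 6.65 and 8.63, around the array medians. Skeletal muscle markers stood apart in 5 tumours, which were combination 1, BMS754807 2 and 6, hydroxychloroquine 5 and control 5.

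The members differed in both signal and spread. Levels of different probe sets cannot be set against each other as amounts of RNA, but on the signal scale the means over 24 tumours ran between 6.15 log2 for Fosb and 13.76 for Junb, with Dusp1 (13.17), Jun (12.79) and Egr1 (12.67) near the top. Atf3 had the widest range of the 10 members, 2.94 log2 between its lowest tumour (6.64) and its highest (9.58). Set against genes of like signal, the within-group SD of Dusp1 (0.59 log2) was larger than that of 98.4% of 1013 genes, that of Junb (0.33) larger than 92.4% of 738 and that of Atf3 (0.78) larger than 92.2% of 1163. Egr2, Fos, Egr1 and Jun lay between the percentiles of 88.0 and 89.7. Nr4a1 (42.4) and Ier2 (46.6) were no more variable than the typical gene of their signal, and Fosb stood at 66.8.

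**Figure D1:**
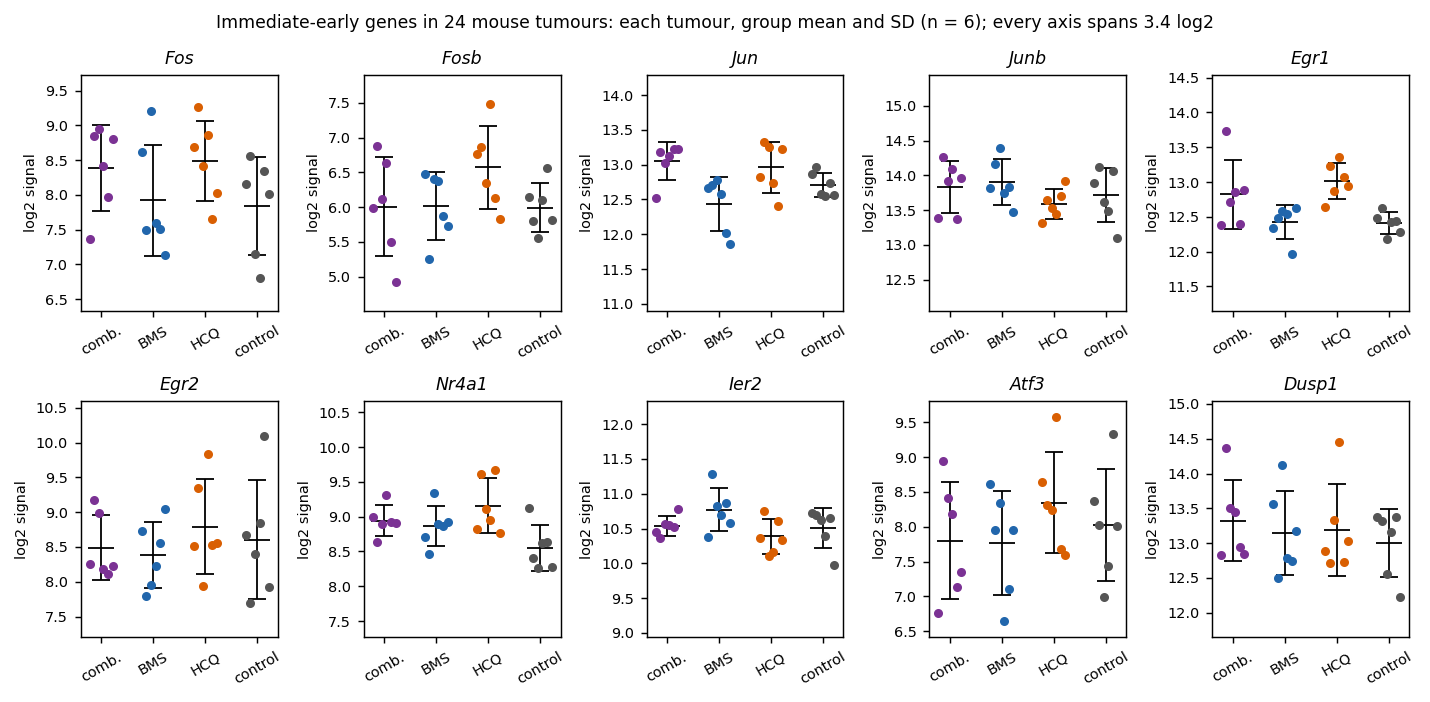
Signal (log2, vertical axes, each spanning the same 3.4 log2) of the 10 immediate-early genes in each tumour of the combination (comb.), BMS754807 (BMS), hydroxychloroquine (HCQ) and control groups, with the group mean and SD as bars (n = 6). Egr1 with hydroxychloroquine alone (12.64 to 13.36) lies above all control tumours (12.18 to 12.63), while Atf3 and Dusp1 vary widely in all 4 groups.

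With hydroxychloroquine, Egr1, Jun, Fos and Nr4a1 lay higher on average, Junb and Ier2 slightly lower, and no member passed the adjusted threshold. Over both backgrounds (12 tumours with hydroxychloroquine against 12 without, called the main effect), 8 of 10 members had a positive difference and their median was 0.23 log2, against a median of 0.00083 over all genes. The members' median was 0.12 without hydroxychloroquine tumour 4 and 0.14 without combination tumour 2, each still with 8 of 10 positive. At an unadjusted p under 0.05, 4 members differed, all higher, against a background of 8.09% of 19505 genes, and under 8 of the alternative settings, apart from leaving out single tumours, 3 did. At an adjusted p under 0.05 (limma, Benjamini-Hochberg over all genes), 0 members differed, and the background was 0%. In whole tumour RNA, fewer cells of a type and less RNA per cell cannot be told apart.

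Some cell type markers differed with hydroxychloroquine too, in both directions. Of 14 epithelial markers, 11 had a positive and 3 a negative main effect, with a median of 0.22 log2. At an unadjusted p under 0.05, 0 of them were higher and 2 lower. All 9 endothelial, all 9 macrophage and all 8 adipocyte markers measured had a negative main effect, with medians of -0.29, -0.22 and -1.10 log2. Of them 1, 2 and 1 had an unadjusted p under 0.05, against 8.09% of all genes. Between combination and BMS754807 all 9 endothelial and all 9 macrophage markers were negative, with medians of -0.57 and -0.52. Between hydroxychloroquine and control each of these lists was split, 4 positive and 5 negative, with medians of -0.06 and -0.038. The mean level of the macrophage markers lay between 8.70 and 9.94 log2 in combination, 8.80 and 11.22 in BMS754807, 8.85 and 10.49 in hydroxychloroquine and 9.18 and 10.82 in control tumours. That of the endothelial markers lay between 7.73 and 8.36, 7.59 and 9.83, 7.81 and 9.53, and 7.75 and 9.88 in the same groups, and that of the adipocyte markers between 4.51 and 9.46, 4.88 and 12.39, 5.16 and 9.81, and 5.91 and 8.52. With the group means removed, Egr1 correlated with these 3 lists at r = -0.00206 (endothelial), -0.138 (macrophage) and -0.23 (adipocyte) over the 24 tumours. For Jun these r were -0.474, -0.661 and -0.199. The part of the endothelial, macrophage and adipocyte lists in the differences was not tested.

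Egr1 encodes a zinc finger transcription factor induced by growth factors through ERK. Its lowest, median and highest values were 12.38, 12.79 and 13.73 log2 in combination tumours and 11.96, 12.51 and 12.62 in BMS754807 tumours. They were 12.64, 13.01 and 13.36 in hydroxychloroquine tumours, against 12.18, 12.44 and 12.63 in control tumours. The hydroxychloroquine and control tumours did not overlap, although the nearest of them all but touched, and 4 of the 6 combination tumours lay above every BMS754807 tumour. Over both backgrounds the Egr1 mean was 12.92 ± 0.39 log2 with hydroxychloroquine and 12.41 ± 0.20 without it (SD, n = 12 each). The difference was 0.51 ± 0.13 (SE), a fold of 1.42, with 10 of 12 tumours above the mean without hydroxychloroquine in the same background (control or BMS754807). It had an adjusted p of 0.293 in limma and an unadjusted exact permutation p of 0.000316 (two-sided, tumours exchanged within each background). By its unadjusted p in limma Egr1 ranked 36 among the 19505 genes.

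Egr1 differed by 0.61 ± 0.18 log2 (SE, n = 6 each) between hydroxychloroquine and control, with an adjusted p of 0.939 in limma and an exact permutation p of 0.00216, the smallest that 924 splits can give. In this comparison 8 of 10 members had a positive difference with a median of 0.285, which was 0.18 without control tumour 3, 0.18 without hydroxychloroquine tumour 4 (6 of 10 positive), 0.53 without control tumour 5 and 0.53 without the 5 tumours rich in muscle markers. Of the 10, 2 members, Egr1 and Nr4a1, had an unadjusted p under 0.05, against 4.81% of all genes, and 0 passed the adjusted threshold, against 0%. Groups that did not overlap, with hydroxychloroquine higher, were seen for 12 genes or 0.0615%, of which Egr1 was the only member. Fibroblast markers (8 of 9 positive, median 0.42 log2, 1 at an unadjusted p under 0.05), skeletal muscle markers (13 of 13, median 1.16, 0) and heat shock genes (9 of 9, median 0.315, 2) also had positive differences between hydroxychloroquine and control. The Egr1 difference was 0.65 with the fibroblast mean as covariate (added after the data were seen), 0.62 with the muscle mean as covariate and 0.61 without the 5 tumours rich in muscle markers. The part of heat shock genes was not tested. Combination tumours lay 0.41 ± 0.18 above BMS754807 tumours for Egr1 (adjusted p = 0.545, limma), and without combination tumour 2, the highest of all 24, this difference was 0.22. The interaction, the hydroxychloroquine difference with BMS754807 minus that without, was -0.21 ± 0.25 for Egr1 (adjusted p = 0.962, limma).

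Egr2, the related factor that also acts in Schwann cells and T cells, showed no such separation. Its mean was 8.49 ± 0.47 log2 in combination, 8.39 ± 0.48 in BMS754807, 8.79 ± 0.68 in hydroxychloroquine and 8.61 ± 0.85 in control tumours (SD, n = 6 each). All 4 groups overlapped, and control tumour 5 was the highest of all 24 at 10.1.

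Nr4a1 encodes an orphan nuclear receptor, and besides Egr1 it was the member with an unadjusted p under 0.05 for hydroxychloroquine against control. Its lowest, median and highest values were 8.64, 8.92 and 9.31 log2 in combination tumours and 8.46, 8.89 and 9.34 in BMS754807 tumours. They were 8.77, 9.03 and 9.67 in hydroxychloroquine tumours, against 8.26, 8.51 and 9.13 in control tumours. The groups overlapped: control tumour 1 (9.13) lay above 4 of the 6 hydroxychloroquine tumours, and the other 5 control tumours lay below all of them. The difference between hydroxychloroquine and control was 0.60 ± 0.18 log2 (SE), a fold of 1.52, with an adjusted p of 0.939 in limma and an exact permutation p of 0.0216. Over both backgrounds it was 0.34 ± 0.13 (adjusted p = 0.466, limma; exact permutation p = 0.022), and 0.25 without the 5 tumours rich in muscle markers. Between combination and BMS754807 the Nr4a1 difference was 0.078 ± 0.18, and the interaction was -0.53 ± 0.25 (adjusted p = 0.951, limma). Nr4a1 was the only member with an unadjusted p under 0.05 for the interaction, 1 of 10 against 5.05% of all genes, with 0 members past the adjusted threshold against 0%.

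Among the AP-1 subunits, which pair as dimers of FOS, JUN and ATF family proteins, Jun had the smallest p. Its lowest, median and highest values were 12.52, 13.16 and 13.23 log2 in combination tumours, against 11.86, 12.62 and 12.78 in BMS754807 tumours. In hydroxychloroquine tumours they were 12.41, 13.03 and 13.33, against 12.55, 12.66 and 12.96 in control tumours. Combination tumours 2 to 6 all exceeded the highest BMS754807 tumour, combination tumour 1 stood within the BMS754807 range, and the hydroxychloroquine and control groups overlapped widely. Jun lay 0.62 ± 0.18 log2 (SE, n = 6 each) higher in combination than in BMS754807 tumours, a fold of 1.53, with an adjusted p of 0.317 in limma and an exact permutation p of 0.0108. In this comparison 7 of 10 members had a positive difference with a median of 0.0925, which was -0.031 (4 of 10 positive) without combination tumour 2 and between 0.022 and 0.20 without any other single tumour. Jun and Egr1 were the 2 of 10 members with an unadjusted p under 0.05 in this comparison, against 8.61% of all genes, and 0 passed the adjusted threshold, against 0%. Over both backgrounds the Jun mean was 13.01 ± 0.31 with hydroxychloroquine and 12.57 ± 0.32 without it (SD, n = 12 each). The difference was 0.43 ± 0.13 (SE), with 11 of 12 tumours above the mean without hydroxychloroquine in the same background. Its adjusted p was 0.318 in limma and its exact permutation p 0.00333. The interaction was 0.36 ± 0.25 for Jun (adjusted p = 0.951, limma).

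Fos, a partner of Jun that serum induces rapidly, had lowest, median and highest values of 7.37, 8.61 and 8.94 log2 in combination tumours and 7.14, 7.56 and 9.20 in BMS754807 tumours. They were 7.66, 8.55 and 9.26 in hydroxychloroquine tumours, against 6.80, 8.08 and 8.56 in control tumours. Fos thus overlapped in all pairs of groups, and BMS754807 tumour 3 was nearly as high as the highest hydroxychloroquine tumour. Its main effect of hydroxychloroquine, 0.56 ± 0.26 log2 (SE), was the largest of the 10 members in size, with 10 of 12 tumours above, an adjusted p of 0.596 in limma and an exact permutation p of 0.0541. Without 1 tumour at a time it lay between 0.45 and 0.68, and in 13 of 24 such fits its unadjusted p was no longer under 0.05.

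Fosb, Junb and Atf3 had no difference with an unadjusted p under 0.05 in any of the 8 comparisons. Fosb, another FOS protein, averaged 6.57 ± 0.59 log2 in hydroxychloroquine and 5.99 ± 0.35 in control tumours (SD, n = 6 each), a difference of 0.58 ± 0.30 (SE) with an exact permutation p of 0.0628. With the combination the Fosb mean was 6.01 ± 0.72. Junb, a JUN protein with weaker transactivation, averaged 13.84 ± 0.37 in combination, 13.91 ± 0.33 in BMS754807, 13.59 ± 0.21 in hydroxychloroquine and 13.72 ± 0.39 in control tumours. For Atf3, a stress-induced repressor, the means were 7.80 ± 0.84, 7.77 ± 0.75, 8.34 ± 0.72 and 8.03 ± 0.81 in combination, BMS754807, hydroxychloroquine and control tumours in that order.

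Dusp1 and Ier2 are neither AP-1 nor EGR factors. Dusp1, the phosphatase that inactivates the p38 and JNK kinases and ERK, averaged 13.33 ± 0.59 log2 in combination, 13.15 ± 0.60 in BMS754807, 13.19 ± 0.66 in hydroxychloroquine and 13.01 ± 0.49 in control tumours (SD, n = 6 each). Its hydroxychloroquine main effect was 0.18 ± 0.23 (SE). Ier2, a nuclear protein, had its highest mean in BMS754807 tumours (10.77 ± 0.31) and its lowest in hydroxychloroquine tumours (10.39 ± 0.25), between which stood combination (10.54 ± 0.14) and control (10.51 ± 0.29). Its hydroxychloroquine main effect was -0.18 ± 0.11 and its BMS754807 main effect 0.21 ± 0.11 (SE), with exact permutation p of 0.0982 and 0.0555.

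**Figure D2:**
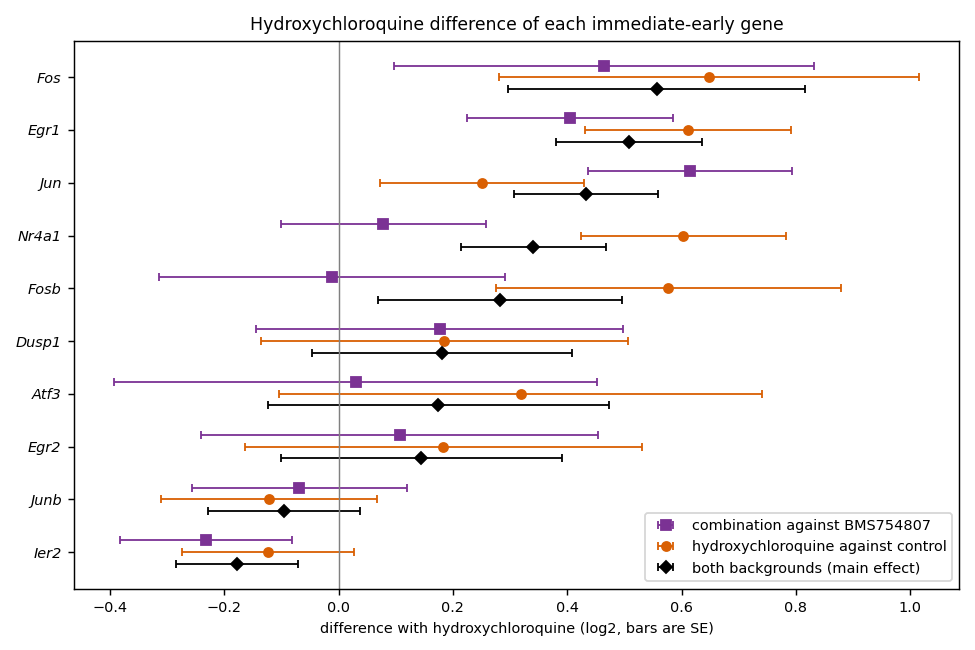
Difference with hydroxychloroquine (log2, horizontal axis, bars are SE) of each immediate-early gene (vertical axis) in the presence of BMS754807 (squares), in its absence (circles) and over both (diamonds). Egr1 and Fos lie well to the right in both backgrounds, while the larger value of Jun is with BMS754807 (0.62) and that of Nr4a1 without it (0.60).

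BMS754807 blocks receptors that can act upstream of these genes. Against control, 7 of 10 members had a positive difference with a median of 0.058 log2, which lay between -0.051 (without BMS754807 tumour 3, 3 of 10 positive) and 0.17 (without control tumour 5) when 1 tumour was left out. It was below 0 in 4 of the 12 such fits, those without control tumour 3 or 6 or BMS754807 tumour 1 or 3. At an unadjusted p under 0.05, 0 members differed, against 5.88% of all genes, and 0 passed the adjusted threshold in limma, against 0%. The members with the smallest p were Nr4a1 (0.31 ± 0.18 log2, SE, n = 6 each, exact permutation p = 0.106) and Ier2 (0.26 ± 0.15, exact permutation p = 0.173). Jun differed by -0.28 ± 0.18 (exact permutation p = 0.184), with BMS754807 tumours 5 and 6 the lowest at 12.02 and 11.86. Fos (0.088 ± 0.37) and Egr1 (0.015 ± 0.18) differed little beside their SE. Over both backgrounds (12 tumours with BMS754807 against 12 without), 4 of 10 members had a positive difference with a median of -0.046 (-0.12 to 0.0088 without 1 tumour at a time), 0 members differed at an unadjusted p under 0.05, against 5.72% of all genes, and 0 at the adjusted threshold, against 0%.

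The combination was also set against control and against hydroxychloroquine. Against control, 8 of 10 members had a positive difference with a median of 0.22 log2, which was 0.082 (5 of 10 positive) without control tumour 6 and 0.0885 (7 of 10) without combination tumour 2. All 9 macrophage, all 9 dendritic cell and all 9 endothelial markers had a negative difference there (medians -0.61, -0.38 and -0.44, with 3, 2 and 0 at an unadjusted p under 0.05), and their part in the members' values was not tested. Egr1 (0.42 ± 0.18, SE) and Nr4a1 (0.39 ± 0.18) had an unadjusted p under 0.05, 2 of 10 members against 5.06% of all genes, with 0 past the adjusted threshold against 0%. Their exact permutation p were 0.0476 and 0.0346, and without combination tumour 2 the Egr1 difference was 0.24. Jun differed by 0.34 ± 0.18 (exact permutation p = 0.0368) and Fos by 0.55 ± 0.37 (exact permutation p = 0.169). Against hydroxychloroquine, 4 of 10 members had a positive difference with a median of -0.14 (-0.20 to 0.0033 without 1 tumour at a time), 0 members had an unadjusted p under 0.05 against 5.39% of all genes, and 0 passed the adjusted threshold against 0%. Fosb (-0.56 ± 0.30) and Atf3 (-0.55 ± 0.42) had the largest differences of the 10 there. The Fosb difference was -0.35 without combination tumour 6, and that of Atf3 -0.30 without hydroxychloroquine tumour 4 and -0.34 without combination tumour 1. All comparisons with control use 1 set of 6 control tumours.

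Other genes of the pathway are described by lists of their own, and 0 genes of these lists passed the adjusted threshold in any of the 8 comparisons. Of 37 further early response genes, 24 had a positive and 12 a negative hydroxychloroquine main effect, with a median of 0.0975 log2. At an unadjusted p under 0.05, 7 were higher and 1 lower, against 8.09% of all genes (885 higher and 692 lower of 19505). Cebpd, a C/EBP factor, lay higher by 0.48 ± 0.15 (SE, adjusted p = 0.335), the polo-like kinase Plk2 by 0.49 ± 0.16 (adjusted p = 0.411) and the FOS relative Fosl2 by 0.32 ± 0.12 (adjusted p = 0.440), all in limma. Between hydroxychloroquine and control, Klf2, a flow-responsive factor of endothelium, differed by 0.79 ± 0.25 (adjusted p = 0.979, limma), and 30 of the 37 genes had a positive difference. Between combination and BMS754807, 17 of the 37 were positive and 20 negative, with a median of -0.035. In that comparison 6 were higher and 1 lower at an unadjusted p under 0.05, against 8.61% of all genes.

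Upstream and downstream genes were split in direction or, for the targets, mostly lower. Of 10 measured genes of the ERK cascade, 6 had a positive hydroxychloroquine main effect, the median was 0.0125 log2 and 0 had an unadjusted p under 0.05. Of 12 genes induced as ERK feedback, 5 were positive, with Etv1 at 0.35 ± 0.13 (SE) and Etv4 at -0.31 ± 0.12, 2 ETS factors on opposite sides. Of 11 serum response and cyclic AMP response factors, 8 were positive, with the CREB coactivator Crtc1 at 0.40 ± 0.14 and the ternary complex factor Elk3 at -0.16 ± 0.071. Among 13 measured targets and corepressors of EGR and AP-1 factors, 3 were positive and 10 negative with a median of -0.27. The 3 of them at an unadjusted p under 0.05, against 8.09% of all genes, were all lower: the urokinase receptor Plaur (-0.28 ± 0.076, adjusted p = 0.299), the growth factor Tgfb1 (-0.22 ± 0.091, adjusted p = 0.548) and the gelatinase Mmp9 (-0.95 ± 0.42, adjusted p = 0.567), all in limma.

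Tumours of the same group differed in several members at once. The mean of the 10 members, each relative to its mean over 24 tumours, was 0.053 ± 0.35 log2 in combination, -0.10 ± 0.27 in BMS754807, 0.18 ± 0.28 in hydroxychloroquine and -0.13 ± 0.33 in control tumours (SD, n = 6 each). It was highest in hydroxychloroquine tumour 4 (0.62) and combination tumour 2 (0.57), and lowest in control tumours 3 (-0.48) and 6 (-0.45). All 4 groups overlapped in this mean. Combination tumour 2 was the highest of its group for 6 of the 10 members, hydroxychloroquine tumour 4 and BMS754807 tumour 3 for 5 each.

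With the group means removed, 38 of the 45 pairs of members correlated positively over the 24 tumours, with a median Pearson r of 0.264. Of the 45 pairs, 8 had an adjusted p under 0.05 (permutation within groups, Benjamini-Hochberg over the pairs), all with a positive r, and by Spearman's rho 4 did. Atf3 and Dusp1 had an r of 0.724 (permutation p = 0.00027, adjusted 0.0106) and a rho of 0.688 (permutation p = 0.00083, adjusted 0.0241). Fos and Atf3 had an r of 0.682 (permutation p = 0.00071, adjusted 0.0106) and a rho of 0.666 (permutation p = 0.00107, adjusted 0.0241). Dusp1 also followed Fosb (r = 0.689, rho = 0.637) and Egr1 (r = 0.602, rho = 0.413). The other called pairs were Fosb with Atf3, Fos with Jun, Fosb with Egr2 and Jun with Junb. When the 2 tumours farthest from the median of the first gene of a pair were left out, 0 of the 45 pairs passed. The lowest adjusted p was then 0.063 (permutation within groups). Leaving out the farthest tumours also lowers the number and the spread of values, so the lost calls do not show that these tumours made the correlations. The r without the 2 tumours was 0.661 for Atf3 with Dusp1, 0.681 for Fos with Atf3, 0.593 for Fosb with Dusp1 and 0.442 for Egr1 with Dusp1.

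**Figure D3:**
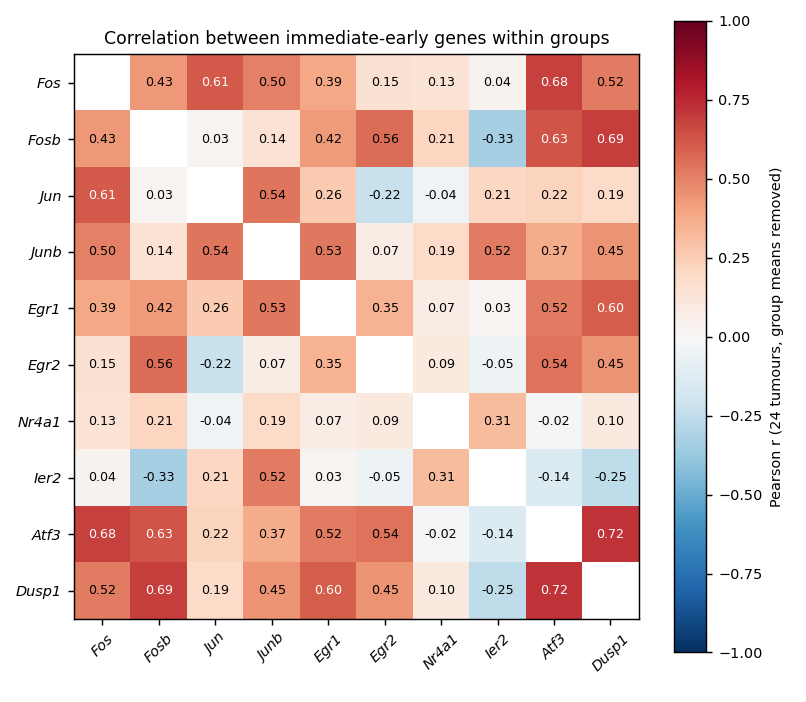
Pearson r between each pair of immediate-early genes over 24 tumours after the group means were removed, with red for positive and blue for negative values. The highest values are those of Atf3 with Dusp1 (0.724), Fosb with Dusp1 (0.689) and Fos with Atf3 (0.682), while Ier2 has the lowest value, -0.329 beside Fosb. The highest values of Ier2 are with Junb (0.517) and Nr4a1 (0.313), neither at an adjusted p under 0.05.

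Against the mean of the other 9 members, the r was 0.777 for Atf3, 0.742 for Dusp1, 0.655 for Fos, 0.635 for Fosb and 0.612 for Egr1. Junb (0.532), Egr2 (0.428) and Jun (0.293) followed it less closely, Nr4a1 had 0.154 and Ier2 -0.033. Nr4a1 holds TGACG at the most places of the 8 members with a window, and Ier2 had no window. Any relation of these places to r was not tested. The mean of the 37 further early response genes correlated with Atf3 (r = 0.87, rho = 0.87, without 2 tumours 0.814), Dusp1 (r = 0.77, rho = 0.743, without 2 tumours 0.734), Fos (r = 0.737, rho = 0.733, without 2 tumours 0.746) and Fosb (r = 0.662, rho = 0.661, without 2 tumours 0.559). Their permutation p were 1e-05, the smallest that 100000 resamples can give, 2e-05, 0.00013 and 0.00163 for r. Adjusted over 170 relations of 10 members with 17 lists, these were 0.0017, 0.0017, 0.00737 and 0.0396, and for rho 0.0017, 0.0102, 0.0119 and 0.0722.

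Of those 170 relations 7 had an adjusted p under 0.05 for r, and the other 3 joined Jun and Egr2 with cell type markers. Jun followed the mean of 14 epithelial markers (r = 0.704, permutation p = 0.00141, adjusted 0.0396; rho = 0.613, permutation p = 0.00465, adjusted 0.113), and r without the 2 farthest tumours was 0.507. It ran against the mean of 9 macrophage markers (r = -0.661, permutation p = 0.0016, adjusted 0.0396; rho = -0.626, permutation p = 0.00327, adjusted 0.111; without 2 tumours -0.643). Egr2 followed the mean of 9 endothelial markers (r = 0.699, permutation p = 0.00113, adjusted 0.0396; rho = 0.463, permutation p = 0.0374, adjusted 0.391; without 2 tumours 0.505). For Egr1 the r with the epithelial markers was 0.0776.

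The epithelial markers overlapped between all 4 groups. Between combination and BMS754807, 11 of 14 had a positive difference with a median of 0.30 log2. At an unadjusted p under 0.05, 1 was higher and 1 lower, against 8.61% of all genes, and 0 passed the adjusted threshold, against 0%. The mean level of the 14 markers lay between 12.05 and 13.08 log2 in combination tumours, 11.36 and 13.39 in BMS754807, 11.52 and 13.15 in hydroxychloroquine and 11.50 and 12.65 in control tumours. Relative to the mean over all 24 tumours, the group means were 0.29, -0.037, -0.028 and -0.22 in the same order. BMS754807 tumours 5 and 6, the lowest of all 24 for Jun, were also the lowest of all for these markers, at -1.04 and -1.03. With the epithelial mean as a covariate, a setting added after the data were seen, the Jun main effect of hydroxychloroquine was 0.34 ± 0.10 log2 (SE, adjusted p = 0.364, limma) and its difference between combination and BMS754807 was 0.49. The Jun difference between combination and control was 0.15 with this covariate. Between BMS754807 and control it was -0.34 ± 0.14 (adjusted p = 0.603, limma), the 1 member difference of that comparison with an unadjusted p under 0.05 under this covariate. For Egr1 the main effect was 0.50 with it. The part of epithelial content in the Jun differences was not tested beyond this covariate.

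**Figure D4:**
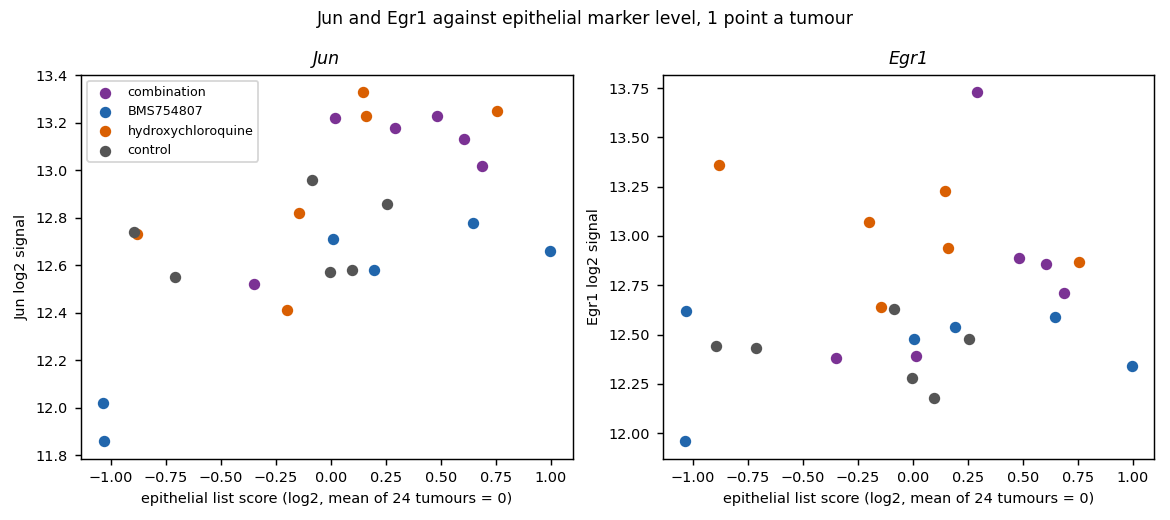
Signal of Jun (left) and Egr1 (right, log2, vertical axes) against the mean of 14 epithelial markers relative to the mean over 24 tumours (log2, horizontal axes), with 1 point a tumour coloured by group. Jun lies low in the 2 BMS754807 tumours at the far left (11.86 and 12.02), whereas Egr1 shows little slope. Egr1 with hydroxychloroquine alone (12.64 to 13.36) lies above control (12.18 to 12.63), while combination tumours start at 12.38. The marker mean reaches 0.75 with hydroxychloroquine alone but only 0.25 in control, so the 2 groups cannot be set against each other above that level.

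The 10 genes most like the mean of the members over the 24 tumours (Pearson r of values with the group means removed, highest of 19505 genes) were Ier3 (0.852), Ciart (0.836), Pvr (0.835), Adm (0.817), Vegfa (0.813), Fnip1 (0.802), Ddit4 (0.789), Bnip3 (0.788), Bhlhe40 (0.787) and Mxd1 (0.786). Ier3 is itself an early response gene, Adm encodes the peptide adrenomedullin, Vegfa the vascular endothelial growth factor, Ddit4 an inhibitor of mTOR signalling and Bnip3 a mitophagy receptor. Of the 37 further early response genes, 7 were among the 100 genes most like the members, and their median r was 0.436 against -0.0147 over all genes. These values share 24 arrays and describe likeness in these tumours.

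For single members, the gene with the highest r to Dusp1 was again Adm (0.869), and to Atf3 it was P4ha2 (0.777), a prolyl hydroxylase subunit of collagen. Junb was most like the glycolytic enzyme gene Aldoa (0.861), Fos most like Tes (0.787), and Jun most like Eif2s3y (0.837), a translation factor gene of the Y chromosome. The gene most like Egr1 was Stpg4 (0.735), like Egr2 Vmn1r58 (0.838), like Fosb Krt78 (0.72), like Nr4a1 Panx2 (0.738) and like Ier2 Gm13287 (0.778). The signals of Stpg4, Vmn1r58, Krt78, Gm13287 and Panx2 averaged between 2.78 and 4.92 log2, in the lower part of the scale.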

How the data were processed

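RNA of 24 mouse tumours was measured on Clariom S arrays. The authors deposited 1 table of 22206 probe sets by 24 arrays, in log2 signal, made with Transcriptome Analysis Console 4.0 as the submitters' processing notes list it. The normalization and the log base were not given in the sources used here, and the base was inferred from the range of values (1.45 to 19.0). GEO's platform annotation gave 19572 probe sets 1 gene symbol, 0 several and 2634 none. Of several probe sets for a gene, the one with the highest mean was kept, which dropped 67 and left 19505 genes.

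A linear model of the 4 group means over the 24 arrays was fitted in limma 3.58.1 under R 4.3.3 (20 residual degrees of freedom, two-sided), with Benjamini-Hochberg adjustment over 19505 genes and a threshold of 0.05. Exact permutation tests and correlations used numpy 2.4.6, with ranks from scipy 1.17.1, and the procedure was tested on simulated data. Members and lists were chosen with earlier results of these data known. All members were named in every comparison, with up to 3 genes of smallest p from each pathway list and the genes most correlated with the members. Listed genes without an annotated probe set were not analysed here. The alternatives were other scalings, filters, weights, variance priors, covariates, a replicate block and leaving out arrays.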

Additional observations from a re-analysis of the deposited data

Results flagged for a closer look

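In 2 of 40 groups of 6 values (10 members in 4 groups), 1 tumour stood further from its neighbours than Dixon's 95% limit for 6 samples allows (a ratio of 0.625). Chance flags about 1 in 20 such groups. Jun was at 12.52 log2 in combination tumour 1, the lowest of its group, and the next tumour was at 13.02. Dusp1 was at 14.46 log2 in hydroxychloroquine tumour 4, the highest of its group, and the next tumour was at 13.33. Combination tumour 1 was also 1 of the 5 tumours with high skeletal muscle markers, and hydroxychloroquine tumour 4 had 1 of the 3 lowest array weights (0.593). The part of either in the values was not tested.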

How the results depend on the processing

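No alternative gave a member an adjusted p under 0.05, and the lowest was 0.155. The 11 member differences at an unadjusted p under 0.05 kept their sign in all 351 alternatives and stayed under 0.05 in 275. These 11 were picked by their p in the same tumours, and several share tumours with each other. The alternatives reuse most of the same values, so a kept sign is not separate support. Over all member values under alternatives, the sign changed in 130 of 2480. The replicate numbers were not used as pairs in the reported fit. Residuals of the same number had mean correlations between -0.075 and 0.189, against 0.000116 for different numbers. The highest mean was that of number 3, whose lowest pair had 0.0868. Whether the numbers mark a shared batch was not tested. With the replicate block, 1 gene passed the adjusted threshold for hydroxychloroquine against control and 1 for its main effect. The main effect gave 5 such genes with a trended and robust variance prior and 1 with muscle markers as covariate, all against 0. Members at an unadjusted p under 0.05 in combination against control, 2 as reported, numbered 1 after quantile normalization, with the replicate block, with the array SD as covariate or without the 3 arrays of lowest weight, and 0 after median centring or with the epithelial covariate. For the hydroxychloroquine main effect, 4 as reported, they numbered 3 after quantile normalization or median centring, with array weights, the replicate block, the array SD or the epithelial covariate, without muscle-rich arrays and without the 3 arrays of lowest weight. In combination against BMS754807, 2 as reported, they numbered 1 after median centring, with the fibroblast covariate or with only the compared groups fitted. For the interaction they numbered 0 rather than 1 under median centring, the trended prior, the replicate block, the array SD, the muscle, fibroblast or epithelial covariate, and without the 3 arrays of lowest weight. Without muscle-rich arrays they numbered 5 in hydroxychloroquine against control, with 1145 of all 19505 genes at that threshold. For the BMS754807 main effect they numbered 1, with 1272 of 19505. BMS754807 against control had 1 (Jun, lower) with the epithelial covariate, with 1479 of 19505 genes. Combination against hydroxychloroquine had 1 with the replicate block, with 1064 of 19505. The fibroblast and epithelial covariates and the removal of 3 arrays were chosen after seeing the data. The cause of these shifts was not tested.

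Leaving out 1 array at a time, genes past the adjusted threshold numbered 0 to 1 in BMS754807 against control and in combination against BMS754807, and 0 to 2 for the hydroxychloroquine main effect. Members at an unadjusted p under 0.05 numbered 0 to 1 in BMS754807 against control, 2 to 4 in hydroxychloroquine against control, 0 to 2 in combination against control, 1 to 2 in combination against BMS754807, 0 to 2 in combination against hydroxychloroquine, 3 to 5 for the hydroxychloroquine main effect, and 0 to 1 for the BMS754807 main effect and the interaction. With all arrays, the share of all genes at that unadjusted threshold lay between 4.81% (hydroxychloroquine against control) and 8.61% (combination against BMS754807). Of the 45 pairs of members, 5 passed without muscle-rich arrays and 0 without the 2 farthest arrays, against 8. Leaving out 1 array took the unadjusted p past 0.05 in 3 of 12 fits for Egr1 and 6 of 12 for Nr4a1 in combination against control, 5 of 12 for Egr1 in combination against BMS754807, and 17 of 24 for the Nr4a1 interaction. With 6 tumours a group the SE of Fos and Atf3 were 0.37 and 0.42 log2, so differences of that size could not be resolved.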

Other observations

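Heat shock genes, which encode chaperones and like the members are induced by stress and handling of tissue, had 9 measured members. All 9 had a positive hydroxychloroquine main effect with a median of 0.157 log2, and 1 of them, the small chaperone Hspb1 (0.56 ± 0.19, SE, adjusted p = 0.411, limma), had an unadjusted p under 0.05, against 8.09% of all genes. Hspa1a, the inducible HSP70, differed by 0.70 ± 0.35 (adjusted p = 0.634, limma). Between BMS754807 and control, 5 of the 9 were positive. Bag3, a cochaperone, differed by 0.37 ± 0.14 there and by 0.35 ± 0.14 between hydroxychloroquine and control. In these 2 comparisons 1 and 2 of the 9 genes had an unadjusted p under 0.05, against 5.88% and 4.81% of all genes, and 0 passed the adjusted threshold.

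Of 10 genes of the ATF4 and stress response, 7 had a positive hydroxychloroquine main effect with a median of 0.023 log2. The asparagine synthetase gene Asns differed by 0.39 ± 0.16 (SE, adjusted p = 0.532, limma). Ppp1r15a, which encodes a phosphatase subunit that restores translation after stress, lay lower by 0.53 in BMS754807 than in control tumours (-0.53 ± 0.17, adjusted p = 0.793, limma). The early response genes Myc and Rhob, a transcription factor of growth and a small GTPase of the cytoskeleton, differed by 0.38 ± 0.15 and 0.46 ± 0.18 between BMS754807 and control, and Cebpd by -0.48 ± 0.21. They were named for their small p among the 37 further early response genes. Of these 37, 2 were higher and 1 lower at an unadjusted p under 0.05 there, against 5.88% of all genes, and 0 passed the adjusted threshold, against 0%.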
